A study of Mus musculus with 12 samples.

Results

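To ask whether the macrophages held transcripts of interferon and of the machinery that senses it, 9 genes were read from the raw count table by their symbols, with no filter on low counts, out of 55573 genes in all. They are the ligands Ifnb1, Ifna4 and Ifng, the receptor chains Ifnar1, Ifnar2, Ifngr1 and Ifngr2, and the receptor-bound kinases Jak1 and Tyk2. RNA-seq libraries of sorted CD11b+ F4/80+ cells were compared, with 3 replicates in each of 4 groups. BMI1-KO MM-MΦs and wt MM-MΦs were bone marrow macrophages kept for 48 h with 5TGM1 cells, a mouse myeloma line, and BMI1-KO MΦs and wt MΦs were the same macrophages without myeloma cells. BMI1-KO marrow came from BMI1fl/fl Mx1-Cre mice and wt marrow from BMI1fl/fl mice, all labelled C57BL/6. Every mouse of both genotypes, controls included, had received 5 doses of 15 mg/kg poly I:C, an RNA mimic that induces interferon, at an age of 6 to 8 weeks. Marrow was taken 4 weeks after the last dose and cultured for 7 days with 5 ng/mL M-CSF. Cre in this line is driven by the interferon-responsive Mx1 promoter. The labels do not say whether the replicates came from separate mice, so p-values measure the spread between these libraries, which may be technical.

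Type I interferons (the Ifna family and Ifnb1) bind a receptor made of Ifnar1 and Ifnar2, whereas type II interferon, the product of Ifng, binds Ifngr1 and Ifngr2. Tyk2 and Jak1 sit on the type I receptor and Jak1 and Jak2 on the type II receptor, and once a ligand binds they phosphorylate the Stat transcription factors. Macrophages can make type I interferon after their nucleic acid or Toll-like receptor sensors are engaged, while T cells and NK cells are the classical source of type II interferon.

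The promoters of ligands and receptors differ in sequence, and those of the 3 ligands and of Ifnar1 are printed because the counts divided along the same line. All 9 promoters were found in RefSeq (GRCm38.p6), each running from 250 bases before to 50 bases after the start of the gene. The windows are chr4:88522745-88523044 on the minus strand for Ifnb1, chr4:88841566-88841865 on the plus strand for Ifna4, chr10:118440796-118441095 on the plus strand for Ifng and chr16:91484965-91485264 on the plus strand for Ifnar1. Capitals mark each match on either strand to AANNGAAA, the core of the sites that interferon regulatory factors bind, or to TATAAA, the letters that the TATA-binding protein reads.
Ifnb1: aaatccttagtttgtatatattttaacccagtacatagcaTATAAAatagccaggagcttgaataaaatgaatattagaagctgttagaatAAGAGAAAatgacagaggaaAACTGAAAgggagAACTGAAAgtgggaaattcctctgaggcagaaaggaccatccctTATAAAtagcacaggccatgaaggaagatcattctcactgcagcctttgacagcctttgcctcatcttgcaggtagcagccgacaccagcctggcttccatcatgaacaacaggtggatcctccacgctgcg
Ifna4: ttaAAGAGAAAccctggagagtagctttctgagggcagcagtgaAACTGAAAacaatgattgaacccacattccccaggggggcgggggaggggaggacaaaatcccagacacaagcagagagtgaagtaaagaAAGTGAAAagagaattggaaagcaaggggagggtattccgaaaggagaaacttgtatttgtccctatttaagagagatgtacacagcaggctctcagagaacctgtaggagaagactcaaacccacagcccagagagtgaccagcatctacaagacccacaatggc
Ifng: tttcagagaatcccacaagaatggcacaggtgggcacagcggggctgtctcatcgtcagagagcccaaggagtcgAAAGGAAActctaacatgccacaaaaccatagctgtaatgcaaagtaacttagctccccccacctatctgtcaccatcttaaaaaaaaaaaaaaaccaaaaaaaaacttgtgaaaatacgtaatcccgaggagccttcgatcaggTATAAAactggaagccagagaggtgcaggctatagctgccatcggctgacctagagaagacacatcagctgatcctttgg
Ifnar1: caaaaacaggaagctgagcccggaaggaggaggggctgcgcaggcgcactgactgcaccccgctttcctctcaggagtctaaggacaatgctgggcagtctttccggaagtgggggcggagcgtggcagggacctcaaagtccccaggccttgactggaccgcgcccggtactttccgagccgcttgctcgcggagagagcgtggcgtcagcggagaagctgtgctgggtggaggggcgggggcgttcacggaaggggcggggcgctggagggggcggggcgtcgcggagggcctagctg
AANNGAAA was matched 3 times in the Ifnb1 promoter, 3 times in that of Ifna4 and 1 time in that of Ifng. It was matched 0 times in the promoters of the 6 receptor and kinase genes, and 23.9% of all 32851 RefSeq promoters of this length hold it. TATAAA, held by 13.6% of all promoters, had 2 matches in Ifnb1, 1 in Ifng and 0 in the other 7 genes. The kappa B site that NF-kappa B is known to bind there was found by its letters in the Ifnb1 promoter alone among the 9 genes, and 36 promoters in all hold it. No matches overlapped in the printed promoters. The ligand promoters held 2 to 7 CG dinucleotides and the other 6 held 14 to 31, where the median over all promoters was 7 and the quartiles were 3 and 20. These are matches of letters and say nothing of whether a factor was bound.

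Library totals ran from 9662279 to 11142768 counts, with 17611 to 18370 genes detected. Macrophage markers, led by Lyz2 (lysozyme), Csf1r (the M-CSF receptor) and Adgre1 (F4/80), were present at a summed 12400 to 19100 CPM (counts per 1000000, after scaling with edgeR's TMM factors) in all 12 libraries. Of 12 T and NK cell markers, 6 were at 0 everywhere, and the list summed to 0 to 1 counts per library in BMI1-KO MM-MΦs, 5 to 16 in wt MM-MΦs, 1 to 3 in BMI1-KO MΦs and 1 to 8 in wt MΦs, with Klrb1c, Cd2 and Trac the highest. Of 8 markers of plasmacytoid dendritic cells, strong producers of type I interferon, Siglech and Klk1 were at 0 in all libraries, and nearly all of the summed level came from Tcf4 and Runx2, with Cox6a2 at 0.51 to 1.15 CPM in the group means. Of the 9 plasma and myeloma cell markers, Prdm1, Xbp1 and Sdc1 had the highest means. The immunoglobulin heavy chain transcript Ighg2b averaged 67.5 CPM in BMI1-KO MM-MΦs, with 75.3 CPM in wt MM-MΦs, against 0.83 CPM in BMI1-KO MΦs and 4.38 CPM in wt MΦs, and was not called with co-culture (edgeR adjusted p = 0.121 in BMI1-KO and 0.589 in wt) unless the replicate number was a block (5.66e-08 and 4.94e-07). The light chain transcript Igkc averaged 68.4 CPM in BMI1-KO MM-MΦs against 1.38 CPM in BMI1-KO MΦs, and 84.0 CPM in wt MM-MΦs against 6.62 CPM in wt MΦs, and was called in BMI1-KO (edgeR adjusted p = 0.0466) and not in wt (0.295, and 2.02e-09 with the block). The part of myeloma cell RNA in the levels of the interferon genes was not tested, and in bulk RNA fewer cells of a type and less RNA per cell cannot be told apart.

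No count of an interferon ligand among the 9 genes was found in any library. Ifnb1, the first type I interferon made in most cell types, had 0 counts in each of the 12 libraries, and so did Ifna4, an early alpha interferon, and Ifng. The authors' FPKM values of these genes were likewise 0 in all 12 libraries. With 3 counts over a group as the limit that a count of 0 allows, each ligand could have stood at up to 0.0974 CPM in BMI1-KO MM-MΦs, 0.0956 CPM in wt MM-MΦs, 0.0972 CPM in BMI1-KO MΦs and 0.0966 CPM in wt MΦs, which covers counting error only. Per kb of exon, scaled by library totals alone, the floor is at most 0.13 CPM for Ifnb1, 0.174 for Ifna4 and 0.0752 for Ifng. Lower levels were not detectable at this depth. Separate libraries of 5TGM1 cells and secreted protein were not analysed here.

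Ifnb1 lies on chromosome 4 of GRCm38 from 88522025 to 88522774 and Ifna4 on the same chromosome from 88841861 to 88842421. Their exon sizes, 750 and 561 bases, equal the length of the gene, so neither has an intron in this annotation. Ifng spans 118441046 to 118445892 on chromosome 10 with 1295 exonic bases. A read that fits several genes may have been discarded, since no source used here gives the handling of such reads, so the share of each transcript that recurs in other genes was measured in GENCODE M21. Of stretches of 50 bases, 0.0% of Ifnb1, 6.4% of Ifna4 and 19.9% of Ifng were shared with another gene. For Ifng the other gene was Gm49751, which overlaps it on the same strand and also had 0 counts. In the BMI1-KO libraries the total behind the authors' FPKM values exceeded the summed counts by 512 to 734, while in the wt libraries it differed by −1 to 1. The counts behind this excess are not among the raw counts used here, and the feature or features they belong to were not identified. The 3 ligands are listed in these libraries with counts and FPKM values of 0, so no excess shows in their rows.

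The remaining ligands were also at or near 0. Of 18 other interferon genes (type I and type III), 17 had 0 counts in all libraries. The exception, Ifna7, had 2, 1 and 0 counts in BMI1-KO MΦs and 0 in each of the other 9 libraries, and 37.6% of its 50-base stretches recur in other genes. Among the 17 genes at 0 this share ran from 0.0% for Ifne and Ifnk to 67.4% for Ifna1 and 76.9% for Ifnz. For stretches of 100 bases it was 14.9% for Ifna1 and 62.2% for Ifnz. Reads from shared stretches may have been discarded, so 0 counts in such genes do not show absence. Ifnlr1, the specific chain of the type III receptor, had 0 to 8 counts per library. The second chain of that receptor, Il10rb, which also serves the interleukin-10 receptor, was well expressed at 183 CPM in BMI1-KO MM-MΦs, 177 CPM in wt MM-MΦs, 178 CPM in BMI1-KO MΦs and 174 CPM in wt MΦs. On chromosome 16 the genes Ifnar2, Il10rb (91406164 to 91425834), Ifnar1 and Ifngr2 follow each other in this order.

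**Figure D1:**
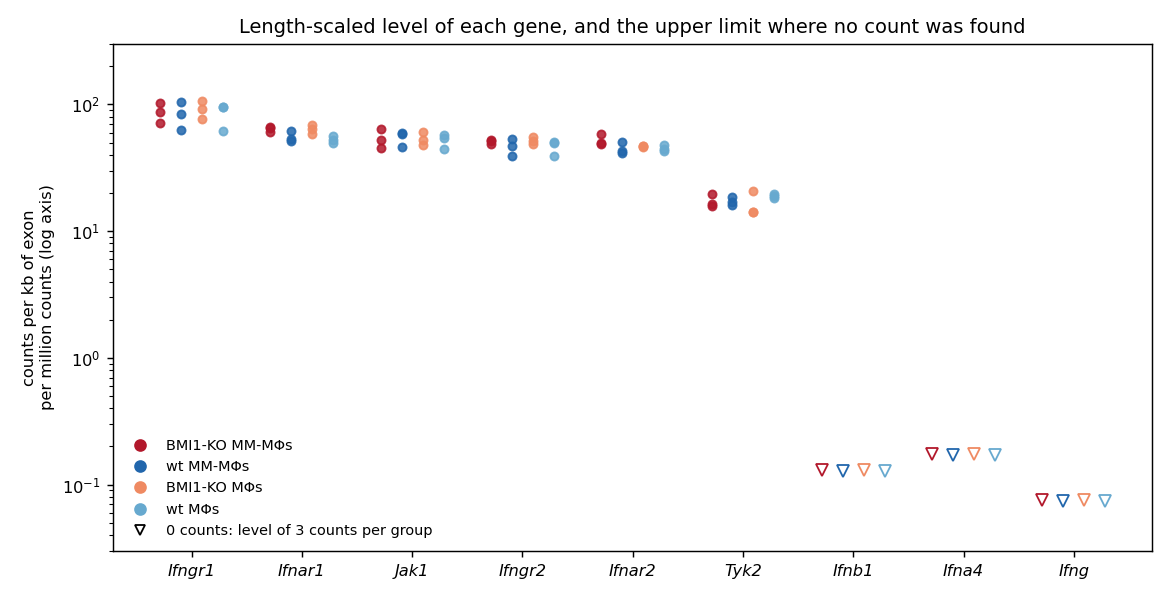
Level in CPM per kb of exon (log axis) of the 9 genes, from the highest to the lowest mean, with groups from left to right BMI1-KO MM-MΦs, wt MM-MΦs, BMI1-KO MΦs, wt MΦs. Filled points are libraries, and open triangles give the level of 3 counts per group for genes with 0 counts. Every library of the 6 receptor and kinase genes was at 14.1 or above, and every open triangle of a ligand was at 0.174 or below.

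In contrast to the ligands, all 4 receptor chains and both kinases had at least 1026 counts in every library. Ifnar1, the chain of the type I receptor that carries Tyk2 (chromosome 16, 91485238 to 91507441), stood at 413, 354 and 389 CPM in BMI1-KO MM-MΦs (replicates 1, 2 and 3, in this order throughout), 393, 311 and 297 CPM in wt MM-MΦs, 379, 352 and 396 CPM in BMI1-KO MΦs and 351, 315 and 273 CPM in wt MΦs. The 3 BMI1-KO MΦ libraries were above the 3 wt MΦ libraries, although the lowest of the first, 352.1 CPM, all but touched the highest of the second, 351.0 CPM. The MM-MΦ libraries of the genotypes overlapped. Ifnar1 averaged 385 ± 29.5 CPM in BMI1-KO MM-MΦs, with 334 ± 51.8 CPM in wt MM-MΦs (SD, n = 3 each), for a log2 fold change of 0.21 (SE 0.14, 95% interval −0.11 to 0.52, edgeR adjusted p = 0.999). Between cultures without myeloma cells it averaged 376 ± 22.2 CPM in BMI1-KO MΦs and 313 ± 39.2 CPM in wt MΦs, a log2 fold change of 0.27 (SE 0.14, 95% interval −0.05 to 0.58, edgeR adjusted p = 0.947). This was the member comparison with the smallest unadjusted p, 0.0889 in edgeR. The libraries of both groups were apart for 10% of all genes tested in this comparison.

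Ifnar2, the chain that carries Jak1 and lies upstream on the same chromosome (91372783 to 91405589), stood at 201, 160.5 and 163 CPM in BMI1-KO MM-MΦs, at 182, 141 and 133 CPM in wt MM-MΦs, 157, 158 and 148 CPM in BMI1-KO MΦs and 169, 148 and 132 CPM in wt MΦs. BMI1-KO MM-MΦ libraries were all above BMI1-KO MΦ libraries, with replicate 1 the highest by a wide margin, and all other pairs of groups overlapped. Libraries were apart for 7.07% of all genes tested in that comparison. The log2 fold change of Ifnar2 was 0.18 (SE 0.15, 95% interval −0.14 to 0.51, edgeR adjusted p = 1) in BMI1-KO MM-MΦs against BMI1-KO MΦs, and 0.07 when replicate 1 of the co-cultured group was left out. Relative to wt MM-MΦs, the log2 fold change in BMI1-KO MM-MΦs was 0.20 (SE 0.15, edgeR adjusted p = 0.999). Ifnar2 overlaps the readthrough gene Gm21970, which had 1 count over the 12 libraries.

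Ifngr1, the ligand-binding chain of the type II receptor (chromosome 10, 19591949 to 19610229), was the most variable of the 6 expressed genes. It stood at 306, 246.5 and 202 CPM in BMI1-KO MM-MΦs, at 318, 245 and 167 CPM in wt MM-MΦs, 306, 264 and 210.2 CPM in BMI1-KO MΦs and 285, 276 and 162 CPM in wt MΦs. Replicate 3 was the lowest in all 4 groups, and the groups overlapped fully. Means were 251.5 ± 52.3 CPM in BMI1-KO MM-MΦs, 243 ± 75.7 CPM in wt MM-MΦs, 260.3 ± 48.2 CPM in BMI1-KO MΦs and 241 ± 68.8 CPM in wt MΦs (SD, n = 3 each). The log2 fold change was 0.05 (SE 0.27, 95% interval −0.56 to 0.65, edgeR adjusted p = 0.999) between BMI1-KO MM-MΦs and wt MM-MΦs, with 0.01 (SE 0.27, 95% interval −0.59 to 0.62, edgeR adjusted p = 1) between wt MM-MΦs and wt MΦs.

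Ifngr2, the signalling chain of the type II receptor (chromosome 16, 91547072 to 91565623), stood at 204, 181 and 192 CPM in BMI1-KO MM-MΦs, at 217, 181 and 137 CPM in wt MM-MΦs, 196, 185 and 201.5 CPM in BMI1-KO MΦs and 199, 189.5 and 136 CPM in wt MΦs. Both wt groups had a low replicate 3, whereas the BMI1-KO libraries lay close together, and no pair of groups was apart. The largest log2 fold change was 0.15 (SE 0.18, 95% interval −0.24 to 0.54, edgeR adjusted p = 0.99), in BMI1-KO MΦs against wt MΦs.

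Jak1, the kinase shared by both receptors (chromosome 4, 101152367 to 101265282), stood at 477, 375 and 324 CPM in BMI1-KO MM-MΦs, at 461, 433 and 311.5 CPM in wt MM-MΦs, 438, 382 and 335 CPM in BMI1-KO MΦs and 434, 394 and 297 CPM in wt MΦs. As for Ifngr1, replicate 3 was the lowest in each group, by more than the group means differed. The log2 fold change was −0.04 (SE 0.21, 95% interval −0.49 to 0.42, edgeR adjusted p = 0.999) in BMI1-KO MM-MΦs versus wt MM-MΦs and 0.10 (SE 0.21, edgeR adjusted p = 1) in wt MM-MΦs against wt MΦs.

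Tyk2, the kinase on Ifnar1 (chromosome 9, 21104068 to 21131243), had the lowest counts of the 6 genes. It stood at 140.5, 112 and 108.5 CPM in BMI1-KO MM-MΦs, at 137, 118 and 103 CPM in wt MM-MΦs, 144, 97.7 and 93.2 CPM in BMI1-KO MΦs and 138, 126 and 125 CPM in wt MΦs. Replicates 2 and 3 of BMI1-KO MΦs were the lowest of all 12 libraries, while replicate 1 was the highest, so that the groups overlapped. The log2 fold change in BMI1-KO MΦs against wt MΦs was −0.22 (SE 0.18, 95% interval −0.61 to 0.18, edgeR adjusted p = 0.976). Tyk2 overlaps 1700084C06Rik on the opposite strand, which had 23 counts in all.

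**Figure D2:**
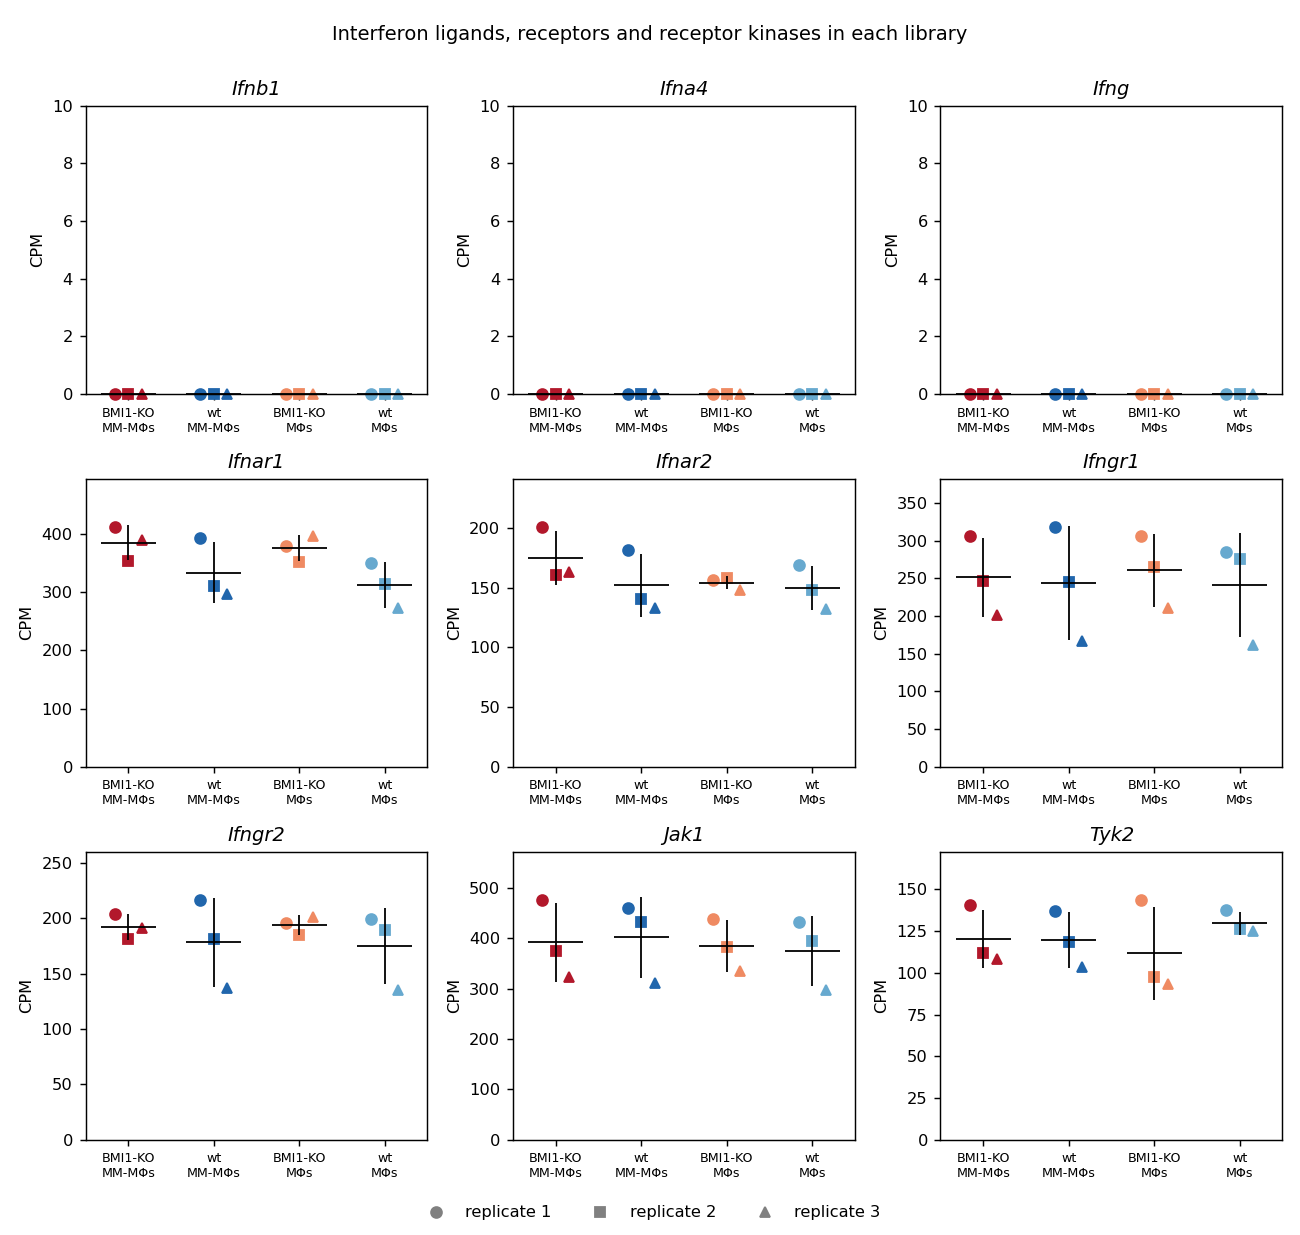
CPM of each gene (y axes from 0) in the 12 libraries, with groups from left to right BMI1-KO MM-MΦs, wt MM-MΦs, BMI1-KO MΦs, wt MΦs, and marker shapes for the replicate number. Horizontal lines are group means and vertical lines 1 SD (n = 3). The ligand panels hold only zeros, and replicate 3 was the lowest in 4 of 4 groups for Ifngr1, Jak1 and Tyk2.

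None of the 6 members that passed the low-count filter was called in any comparison (edgeR's quasi-likelihood test with Benjamini-Hochberg adjustment over 14197 genes, threshold 0.05). The 3 ligands did not pass the filter and were not tested. Of all genes tested, 0.0634% were called in BMI1-KO MM-MΦs versus wt MM-MΦs, 0.0493% in BMI1-KO MΦs against wt MΦs, 0.19% in BMI1-KO MM-MΦs against BMI1-KO MΦs, 0.0916% in wt MM-MΦs against wt MΦs and 0% for the interaction of genotype and co-culture. With calls this rare, 0 of 6 members is near the background. In all 5 comparisons 0 members had an unadjusted p below 0.05 in edgeR, and DESeq2 and limma-voom called 0 as well. With the replicate number as a block within each genotype, 2.17% of genes were called in BMI1-KO MM-MΦs against BMI1-KO MΦs, 1.1% in wt MM-MΦs against wt MΦs and 0.00704% for the interaction, and still 0 members. The comparisons between genotypes could be blocked only across genotypes, where the numbers were not taken as pairs. Such a block called 1.27% of genes in MM-MΦs and 1.45% in MΦs, again with 0 members.

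The intervals, each taken alone, describe how precisely these libraries fix the fold changes of the receptor and kinase genes. Over the 4 comparisons between groups the 95% intervals of the 6 genes ran from −0.65 at the lowest to 0.71 at the highest on the log2 scale, both for Ifngr1. For the difference in response to co-culture between the genotypes they ran from −0.92 to 0.79, again for Ifngr1. No interval reached a log2 fold change of 1 in either direction. The narrowest were those of Ifnar1. The median log2 fold change of the 6 genes was 0.08 in BMI1-KO MM-MΦs versus wt MM-MΦs (−0.01 over all genes tested), 0.08 in BMI1-KO MΦs against wt MΦs (−0.01), 0.03 in BMI1-KO MM-MΦs against BMI1-KO MΦs (−0.01) and 0.03 in wt MM-MΦs against wt MΦs (0.00).

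**Figure D3:**
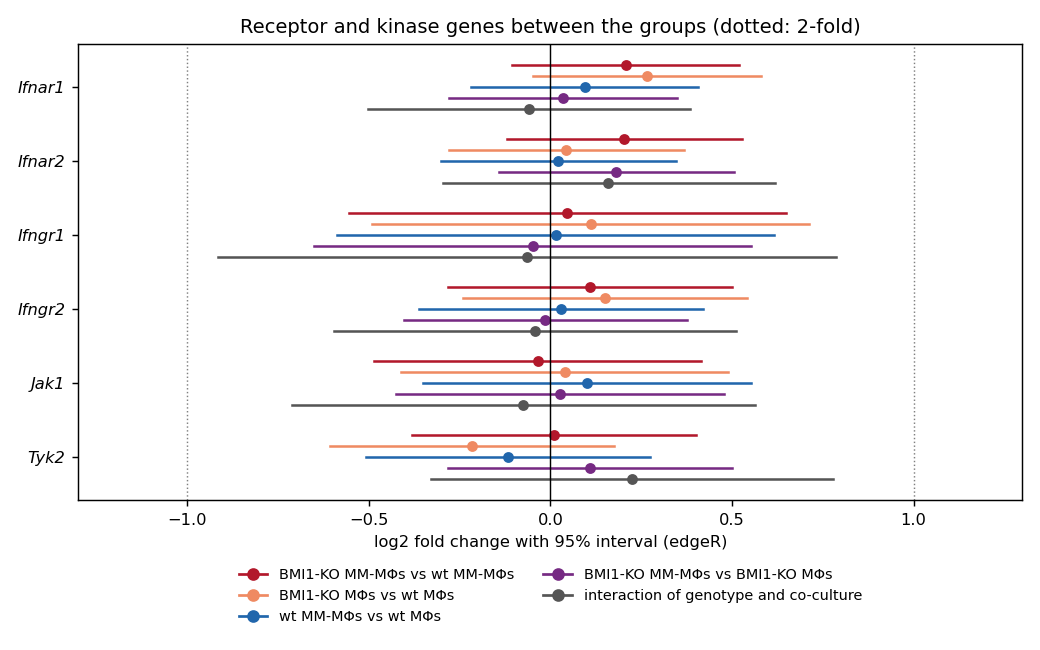
Log2 fold changes (x axis, edgeR) of the 6 receptor and kinase genes in the 5 comparisons, where points are estimates, bars are 95% intervals and dotted lines mark a 2-fold change. All 30 intervals include 0 and stay within the dotted lines, and the widest belong to Ifngr1.

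Scaled to length, the order of the genes was Ifngr1, Ifnar1, Jak1, Ifngr2, Ifnar2 and Tyk2, with means over the 12 libraries of 86.8, 59.1, 53.5, 48.9, 47.2 and 17.5 CPM per kb of exon. Ifngr1 was above Ifnar1, and Ifnar2 above Tyk2, in 12 of 12 libraries. The genes between them were close, since Ifnar1 was above Jak1 in 9 libraries, Jak1 above Ifngr2 in 10 and Ifngr2 above Ifnar2 in 8. In CPM, which does not account for length, Jak1 led instead, with a mean of 388 CPM against 352 CPM for Ifnar1 and 249 CPM for Ifngr1. The chains of the type I receptor were near parity per kb, with an Ifnar1 to Ifnar2 ratio of 1.24 ± 0.09 for BMI1-KO MM-MΦs, 1.23 ± 0.02 for wt MM-MΦs, 1.37 ± 0.13 for BMI1-KO MΦs and 1.17 ± 0.02 for wt MΦs (SD, n = 3 each). The Ifngr1 to Ifngr2 ratio was 1.38 to 2.07 and the Jak1 to Tyk2 ratio 2.26 to 3.72 over the 12 libraries.

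The coefficient of variation over the 12 libraries was 12.6% for Ifnar1 and Ifnar2, 13.5% for Ifngr2, 14.5% for Tyk2, 15.7% for Jak1 and 21.6% for Ifngr1. Levels of log2 CPM followed each other most closely for Ifngr1 and Jak1 (Pearson r = 0.943 over 12 libraries) and least for Ifnar1 and Tyk2 (r = 0.108). These points share library, replicate number and scaling, so r is a description only. Among 10070 other genes with a mean of at least 5 CPM, the patterns closest to Ifngr1 were those of Cdc42ep2 (r = 0.976) and Il10ra (r = 0.974), and those closest to Jak1 were Ptafr (r = 0.977) and Abca1 (r = 0.976). For Ifnar1 they were Itga9 (r = 0.933) and Vav1 (r = 0.917), for Ifnar2 Srgn (r = 0.945) and Tlr9 (r = 0.938), for Ifngr2 Abhd12 (r = 0.94) and Sel1l3 (r = 0.935), and for Tyk2 Snx8 (r = 0.933) and Phf7 (r = 0.932).

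While the ligands stayed at 0 counts and no receptor or kinase gene was called, genes downstream of the type I receptor were higher in both co-cultures. The 25 type I interferon-induced genes listed summed to 2390 to 3300 CPM in BMI1-KO MM-MΦs, with 2010 to 2270 CPM in wt MM-MΦs, against 887 to 1340 CPM in BMI1-KO MΦs and 869 to 1040 CPM in wt MΦs. All 25 had a log2 fold change above 0 in both genotypes, with medians of 1.60 in BMI1-KO MM-MΦs against BMI1-KO MΦs and 1.57 in wt MM-MΦs against wt MΦs, where all genes tested had −0.01 and 0.00. In edgeR 14 of 25 were called higher in BMI1-KO and 9 of 25 in wt, and none lower, beside 0.19% and 0.0916% of all genes called higher. Those shares are 27 and 13 genes, which include the called genes of this list. The list was chosen with earlier results of these data known, so its share is a description and not independent support. Ifit1, which binds foreign RNA, averaged 54.7 CPM in BMI1-KO MM-MΦs against 8.18 CPM in BMI1-KO MΦs (log2 fold change of 2.74 with SE 0.25, edgeR adjusted p = 0.00145) and 25.2 CPM in wt MM-MΦs against 5.22 CPM in wt MΦs (2.27, SE 0.25, edgeR adjusted p = 0.0146). Its relatives Ifit2 and Ifit3 had log2 fold changes of 3.16 and 3.41 in BMI1-KO and 2.46 and 2.89 in wt. Mx1, an antiviral GTPase whose promoter drives Cre in the BMI1-KO line, had 2.97 (edgeR adjusted p = 0.0046) and 2.28 (edgeR adjusted p = 0.027), Mx2 had 2.03 and 2.11, Oasl1 had 2.11 and 1.88 and Ifi44 had 2.22 and 2.84, all called in both genotypes.

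These counts rested on single libraries and on an assumed pairing. The labels give no pairs and do not say what a shared replicate number marks. Within each genotype the numbers were taken as pairs, from correlations of 0.18 to 0.73 in these same data. With the numbers as a block 25 of 25 were called in BMI1-KO and 24 of 25 in wt, beside 2.17% and 1.1% of all genes. These block counts depend on that assumption. Without a block, 10 were called in BMI1-KO after replicate 1 of BMI1-KO MM-MΦs was left out, 4 without replicate 2 and 7 without replicate 3, and 6, 6 and 4 without replicates 1, 2 and 3 of BMI1-KO MΦs. In wt, 3 were called without replicate 2 of wt MM-MΦs and 0 without any other of the 6 libraries. The calls of Ifit1, Ifit2, Ifit3 and Mx1 in BMI1-KO held in all 6 of these fits, those of Oasl1, Mx2 and Ifi44 in BMI1-KO were lost in 2, 4 and 5 of them, and those in wt were lost in 5 or 6. In fits to the 6 libraries compared, 0 were called in BMI1-KO and 5 in wt. The fold changes of these genes stayed above 0 in every such fit. The difference between the genotypes' responses was itself tested, with 0 of 25 called and a median interaction of 0.08. Between BMI1-KO MM-MΦs and wt MM-MΦs 0 of 25 were called in edgeR and 1 in DESeq2. The median log2 fold change was 0.41, where all genes tested had −0.01. Ifit1 was the furthest apart, at 1.12 (SE 0.23, edgeR adjusted p = 0.213), followed by Ifi44 at 1.01 and Ifit3 at 0.96. A similar gap was seen without myeloma cells, with a median of 0.35 in BMI1-KO MΦs against wt MΦs. There 22 of 25 were above 0 and 0 were called in edgeR. Ifi44 was at 1.63 (SE 0.34, edgeR adjusted p = 0.214), Ifit1 at 0.65 and Ifit3 at 0.45.

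**Figure D4:**
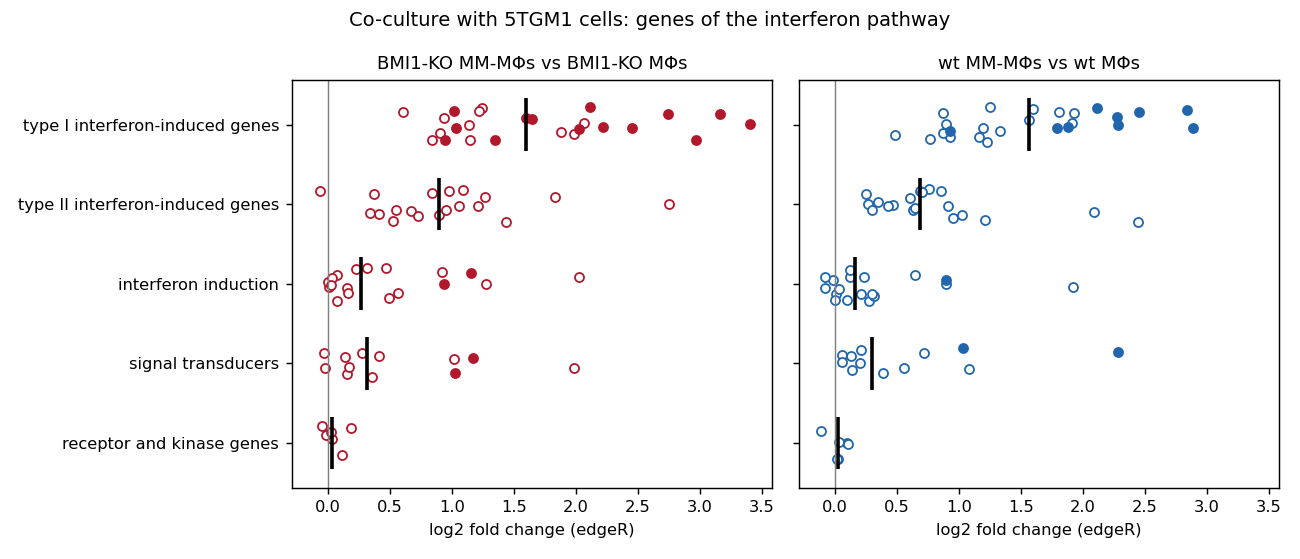
Log2 fold changes (x axis, edgeR) of genes along the interferon pathway in BMI1-KO MM-MΦs against BMI1-KO MΦs (left) and wt MM-MΦs against wt MΦs (right). Each point is a gene, filled where its adjusted p was below 0.05, vertical position within a row carries no value, and black lines are medians. The medians of the type I interferon-induced genes lie at 1.60 and 1.57, and those of the receptor and kinase genes at 0.03 and 0.03.

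Between receptor and target genes stand the signal transducers, of which 12 of 13 were tested. With co-culture 0 were called lower in either genotype. Stat2 rose in both, with log2 fold changes of 1.17 (edgeR adjusted p = 0.0202) in BMI1-KO and 1.03 (edgeR adjusted p = 0.048) in wt. Usp18, which displaces Jak1 from Ifnar2, had 2.28 in wt (edgeR adjusted p = 0.048) and 1.99 in BMI1-KO (edgeR adjusted p = 0.0541). Irf9, a DNA-binding partner of Stat2, had 0.35 in BMI1-KO and 0.56 in wt and was not called in either. Stat2 in BMI1-KO lost its call when any library except replicate 1 of BMI1-KO MM-MΦs was left out, and Stat2 and Usp18 in wt lost theirs without any 1 of the 6 libraries. Between BMI1-KO MM-MΦs and wt MM-MΦs Cish had a log2 fold change of 0.77 and Usp18 of 0.60, neither called.

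Of 18 genes that lead to interferon production, 2 were called higher in BMI1-KO and 1 in wt with co-culture. The RNA sensor Ddx58 (RIG-I) had log2 fold changes of 1.15 (edgeR adjusted p = 0.00724) in BMI1-KO MM-MΦs against BMI1-KO MΦs and 0.90 (edgeR adjusted p = 0.0454) in wt MM-MΦs against wt MΦs. Ifih1 (MDA5), a second RNA sensor, had 0.94 (edgeR adjusted p = 0.0282) in BMI1-KO. Leaving out any 1 of the 6 libraries ended the calls of Ddx58 in wt and Ifih1 in BMI1-KO, and that of Ddx58 in BMI1-KO ended without replicate 2 of BMI1-KO MM-MΦs or replicate 1 of BMI1-KO MΦs, with a highest edgeR adjusted p of 0.0653. Irf7, the factor that amplifies alpha interferon genes, averaged 182 CPM in BMI1-KO MM-MΦs against 44.6 CPM in BMI1-KO MΦs (2.03, edgeR adjusted p = 0.0642) and 118 CPM in wt MM-MΦs against 31.3 CPM in wt MΦs (1.92, edgeR adjusted p = 0.115). With the block it was called in both. Of the 18 genes, 5 were then called in BMI1-KO and 4 in wt, beside 2.17% and 1.1% of all genes. In BMI1-KO MM-MΦs versus wt MM-MΦs Irf7 (0.62), Tlr9 (0.58) and Ifih1 (0.44) were the furthest apart, none called.

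Of 25 type II interferon-induced genes 19 were tested, and 0 were called in either genotype in edgeR. With the block 11 were called in BMI1-KO and 7 in wt, beside 2.17% and 1.1% of all genes. Their median log2 fold changes with co-culture were 0.89 in BMI1-KO and 0.69 in wt, with 18 of 19 above 0 in BMI1-KO and 19 of 19 in wt. Iigp1 rose the most, with log2 fold changes of 2.8 and 2.4, and was called only with the block. Some genes of the list were at or near 0, with Nos2 and Gbp2b at 0 counts in all libraries and Cxcl9 and Ido1 below 0.3 CPM in every group mean. Irf1, an early target of type II interferon, averaged 377 CPM in BMI1-KO MM-MΦs against 395 CPM in BMI1-KO MΦs and 368 CPM in wt MM-MΦs against 307 CPM in wt MΦs. The class II genes H2-Aa, H2-Ab1 and H2-Eb1 had the widest gaps between the genotypes, with log2 fold changes of −2.74, −2.56 and −2.28 (SE 0.99, 0.735 and 1.12) in BMI1-KO MM-MΦs versus wt MM-MΦs. Levels were low and variable, at 2.2 ± 1.7 against 14.8 ± 11.5 CPM for H2-Aa and 2.0 ± 2.6 against 9.8 ± 7.6 CPM for H2-Eb1 (mean and SD). For both genes the libraries of the genotypes overlapped. The paper reports the other direction for protein, with more MHC-II positive cells among BMI1-KO MM-MΦs by flow cytometry. These class II genes were not called in edgeR (adjusted p = 0.76, 0.508 and 0.999). With a block across genotypes, where no pairs were assumed, H2-Aa and H2-Ab1 were called and H2-Eb1 was not (edgeR adjusted p = 0.0405, 0.00223 and 0.134). Without myeloma cells the gaps were −2.95, −2.86 and −3.5 in BMI1-KO MΦs against wt MΦs, not called in edgeR without the block. The plasma cell marker Sdc1 lay on the same side, at −2.23 (edgeR adjusted p = 0.496), and at −2.40 without myeloma cells (edgeR adjusted p = 0.444). Of the 6 tested plasma and myeloma cell markers, 5 were below 0 in MM-MΦs (Ighg2b −0.16, Igkc −0.295, Xbp1 0.05). Without myeloma cells 5 were below 0 as well (Ighg2b −2.40, Igkc −2.23, Xbp1 0.06). Sdc1 averaged 75.4 CPM in wt MM-MΦs and 75.8 CPM in wt MΦs. Its part in these gaps was not tested.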

How the data were processed

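Libraries of total RNA from sorted cells of 4 groups with 3 replicates each were used, grouped by the genotype and culture in their labels, and 0 value columns had no sample. Raw counts per gene and FPKM values with exon sizes are as the authors deposited them. The submitters' processing notes name HTSeq 0.6.1, HISAT2 2.0.1, cutadapt 1.9.1, bcl2fastq 2.17.1.14 and GRCm38. Read length, strand setting, annotation release and the handling of reads that fit several genes were not given in the sources used here. The authors' FPKM values served as a check and differed from CPM per kb of exon by at most 0.05 in the 9 genes.

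Tests used edgeR 4.0.16 (R 4.3.3) on the counts in 1 model with a mean per group over all 12 libraries, TMM scaling, filterByExpr (minimum count 10, minimum total 15) and a 95% interval for each log2 fold change. The tests were checked on simulated data. Alternatives were other filters, scalings and sets of libraries, DESeq2 1.42.0, limma-voom (limma 3.58.1), a replicate block, and each library left out. Within each number, deviations of MΦ and MM-MΦ libraries from their group means correlated at 0.64, 0.18 and 0.60 in BMI1-KO and 0.55, 0.36 and 0.73 in wt, each over the minimum of 0.1, and numbers were taken as pairs within a genotype. Between genotypes they were 0.50, 0.03 and 0.51 for MM-MΦs and 0.48, −0.03 and 0.50 for MΦs, and no pairs were assumed.

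The members, gene lists and tests were chosen with earlier results of these data known. Named were all 9 members, the 2 genes closest in pattern to each expressed member, up to 6 called genes per list and comparison, the 3 with the largest fold change between BMI1-KO MM-MΦs and wt MM-MΦs, Stat2, Irf9 and Mx1, and the 3 highest markers per cell type. One other item that this rule names is not reported here. Other genes were named after their values were seen. Promoters are those of RefSeq on GRCm38.p6.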

Additional observations from a re-analysis of the deposited data

How the results depend on the processing

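The count of members past the threshold was 0 in all 5 comparisons under every alternative run: no filter, a filter of at least 1 CPM in at least 3 libraries, DESeq2 size factors, upper quartile scaling, DESeq2, limma-voom, only the 6 libraries compared, the replicate block and each library left out. It was also 0 without the 4 libraries numbered 3, an alternative chosen after seeing the data. Member fold changes are small, and 51 of their values under alternatives reversed, all but 1 of them with libraries left out. The exception was Ifngr1 in wt MM-MΦs against wt MΦs, −0.007 with upper quartile scaling. Without the libraries numbered 3, BMI1-KO MM-MΦs versus wt MM-MΦs gave −0.014 for Ifngr1, −0.034 for Ifngr2 and −0.002 for Tyk2, BMI1-KO MM-MΦs against BMI1-KO MΦs gave 0.016 for Ifngr2, and BMI1-KO MΦs against wt MΦs gave −0.02 for Ifngr2 and −0.002 for Jak1. In wt MM-MΦs against wt MΦs that setting gave −0.008 for Il10rb and −0.393 for Cish, limma-voom gave −0.272 for Cish and −0.073 for Tlr9, and the replicate block gave −0.016 for Cish and −0.037 for Tlr9. With 1 library left out in turn, these fold changes took both signs. For BMI1-KO MM-MΦs versus wt MM-MΦs the ranges were −0.146 to 0.289 for Ifngr1, −0.035 to 0.275 for Ifngr2, −0.061 to 0.186 for Il10rb, −0.2 to 0.096 for Jak1 and −0.117 to 0.118 for Tyk2. For wt MM-MΦs versus wt MΦs the ranges were −0.289 to 0.645 for Cish, −0.18 to 1.255 for H2-Aa, −0.041 to 0.186 for Ifnar1, −0.127 to 0.117 for Ifnar2, −0.227 to 0.216 for Ifngr1, −0.138 to 0.178 for Ifngr2, −0.116 to 0.164 for Il10rb, −0.043 to 0.244 for Jak1 and −0.651 to 0.425 for Tlr9. For BMI1-KO MM-MΦs versus BMI1-KO MΦs the ranges were −0.078 to 1.469 for H2-Aa, −0.141 to 1.119 for H2-Ab1, −0.016 to 0.092 for Ifnar1, −0.214 to 0.097 for Ifngr1, −0.057 to 0.028 for Ifngr2, −0.066 to 0.151 for Il10rb, −0.138 to 0.157 for Jak1 and −0.016 to 0.334 for Tyk2. For BMI1-KO MΦs versus wt MΦs the ranges were −0.034 to 0.139 for Ifnar2, −0.103 to 0.25 for Ifngr1 and −0.098 to 0.157 for Jak1. For the interaction the ranges were −0.15 to 0.076 for Ifnar1, −0.26 to 0.179 for Ifngr1, −0.187 to 0.125 for Ifngr2 and −0.239 to 0.074 for Jak1. The causes were not tested.

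Type I interferon-induced genes called higher in wt MM-MΦs against wt MΦs, 9 in the report, were 14 with no filter, 18 by DESeq2, 2 by limma-voom, 5 in the 6 libraries compared, 24 with the replicate block, 0 to 3 with a library left out and 1 without the libraries numbered 3. In BMI1-KO MM-MΦs against BMI1-KO MΦs, 14 in the report, they were 0 in the 6 libraries compared, 25 with the replicate block, 4 to 10 with a library left out and 1 without the libraries numbered 3. Between genotypes, 0 in the report, DESeq2 and the replicate block each called 1 in MM-MΦs and 1 in MΦs. That block pairs numbers across genotypes, where replicates 1 and 3 correlated at 0.48 to 0.51 and replicate 2 at 0.03 and −0.03, below the minimum of 0.1. In BMI1-KO MM-MΦs versus wt MM-MΦs it gave an edgeR adjusted p of 0.00893 for Ifit1, 0.0405 for H2-Aa, 0.00223 for H2-Ab1, 0.0414 for Cd74 and 0.134 for H2-Eb1. For the other named genes 135 values lost and 22 gained a call. The 9662279 to 11142768 counts per library and 3 libraries per group limit what can be seen.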
